A study of Mus musculus with 36 samples.

Results

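The CREB factors and coactivators were followed in mouse hippocampal slices after chemically induced long-term potentiation (LTP). They are 9 genes, chosen for their place in the pathway and found by symbol in the 3 tables of all genes (30, 60 and 120 min), out of 24058 genes used. Creb1, Atf1 and Crem encode the DNA-binding factors. Crtc1, Crtc2 and Crtc3 encode the CREB-regulated transcription coactivators, Crebbp and Ep300 the acetyltransferases CBP and p300, and Sik1 a salt-inducible kinase. All 9 passed the filter on low counts in each comparison described here.

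Acute slices of CA3 and CA1, with the dentate gyrus removed, came from adult C57BL/6 mice of both sexes. The mice were heterozygous for RiboTag and for Camk2a-cre, and this holds for LTP and basal slices alike. Cre driven by the Camk2a promoter puts an HA tag on the ribosomal protein Rpl22 of excitatory neurons, so that anti-HA beads pull down their ribosomes. LTP slices received forskolin and then forskolin with raised K+ and Ca2+ in Mg2+-free artificial cerebrospinal fluid. Basal slices received vehicle (DMSO) for the same time. Slices were frozen 30, 60 or 120 min later, and each homogenate gave ribosome-bound RNA (TRAP-seq) and total RNA of all cell types (RNA-seq). There were 3 replicates per group and 36 libraries in all, each replicate pooled from several mice, and the LTP and basal slices of a replicate number came from the same mice. By the sample labels, library preparation and sequencing were shared by every library of a given time, so time and batch cannot be told apart.

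CREB, ATF1 and CREM are leucine-zipper proteins that bind the cAMP response element (CRE) as dimers. Phosphorylation of CREB by PKA and other kinases recruits CBP and p300, which acetylate histones. The CRTC proteins are kept in the cytoplasm while salt-inducible kinases phosphorylate them, and they enter the nucleus and bind CREB after calcineurin removes those phosphates. SIK1 thus acts as a brake on CRTC. Crem also yields the inducible repressor ICER from an internal promoter; counts per gene do not separate ICER from full-length Crem. Transcription that depends on CREB has long been studied in hippocampal plasticity and memory.

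The element itself was looked for in RefSeq promoter windows of build GRCm38.p6, which run from 250 bases before to 50 bases after a gene's start. Windows were matched for 6 of the 9 members (Creb1, Atf1, Crtc1, Crtc3, Crebbp and Ep300); Crem, Crtc2 and Sik1 were not matched. The core TGACG was searched on both strands, so that it reads CGTCA when it lies on the opposite strand, and the full palindrome TGACGTCA was searched as well and holds the core on each strand. Of all 32851 windows, 20.8% held the core and 1.79% the palindrome. Of the 6 members, 1 held the core, which was Atf1. Of 20 CREB targets listed for comparison, 16 were matched and 14 held it in at least 1 window. The targets were listed because they are known targets of CREB, so their count is no independent evidence. The counts for members and targets are of genes, while the 20.8% is a share of windows. Bdnf had 7 windows, of which 1 held the core, and Per1 had 2 windows. The stretch around the core in Atf1 and around the core nearest the start in 4 targets described below (the palindrome in Btg2) is shown to set these promoters side by side, each 30 bases long, 5′ to 3′ on the gene's strand, with the match in capitals.
Atf1: gtgaccacgcggTGACGcagcacgccggcg
Fos: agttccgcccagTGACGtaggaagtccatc
Junb: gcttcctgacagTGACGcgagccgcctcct
Btg2: tgttcccaataaTGACGTCAgtgagcgatg
Nr4a1: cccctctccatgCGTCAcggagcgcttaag
The Atf1 stretch lies at chr15:100227757-100227786 on the plus strand and its match begins 90 bases before the start. The Fos stretch (chr12:85473812-85473841, plus strand) has its match 66 bases before the start, and the Junb stretch (chr8:84978837-84978866, minus strand) 106 bases before. The Btg2 palindrome (chr1:134079304-134079333, minus strand) begins 166 bases before the start, and the Nr4a1 core (chr15:101266794-101266823, plus strand) 40 bases before. A match is a description of the letters, not a binding site.

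Libraries held between 21265627 and 52459224 reads on genes, with the rRNA gene Rn45s included. In TRAP-seq at 120 min Rn45s took 0.13 to 1.58% of the reads of LTP libraries, against 40.6 to 61.4% in the basal ones. The reads left were 33042265 to 35267718 in these LTP libraries, against 10146353 to 16753607 in the basal ones. Values in CPM, the reads on a gene scaled to the library's total (TMM-adjusted), are therefore given without Rn45s. Fold changes and tests kept it unless stated. In TRAP-seq at 120 min 5 kidney markers summed to 0.858 to 2.27 CPM in LTP libraries, against 7.11 to 8.40 CPM in the basal ones. None of the 5 was at 0 in either group, and 4 of the 4 that were tested were called lower. At 30 min 5 excitatory neuron markers summed to 6055 to 6403 CPM in TRAP-seq of basal slices, against 3382 to 3779 CPM in their RNA-seq. For 5 astrocyte markers the sums were 54.2 to 72.7 CPM in TRAP-seq and 1336 to 1590.3 CPM in RNA-seq. For 5 oligodendrocyte markers they were 476 to 601 CPM in TRAP-seq and 4730 to 6060 CPM in RNA-seq. Sums of interneuron, microglia and endothelial cell markers were also lower in TRAP-seq. Those of 5 choroid plexus markers were higher in TRAP-seq (47.2 to 56.3 CPM) than in RNA-seq (30.3 to 33.7 CPM). The dentate granule cell markers were present in every group, with none of 5 at 0 and sums of 142 to 299 CPM over all groups. A single TRAP-seq basal library (replicate 1 at 60 min) is called 60 min in its title and 30 min in another label; it was taken as 60 min.

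Sik1 was the only member called as changed after LTP, by the rule given below. In excitatory neurons its ribosome-bound RNA was 1.46-fold higher in LTP than in basal slices at 60 min and 2.48-fold higher at 120 min, and in total RNA it was 1.36-fold and 2.37-fold higher at the same times. At 30 min neither measurement passed the test. The gene (mm10, chr17:31844250-31855804, minus strand) has 4521 bases of exon. It had 133 to 2143 reads per library, with a median of 966.

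In TRAP-seq at 30 min Sik1 had 16.0, 16.7 and 18.3 CPM in LTP libraries, against 14.8, 15.5 and 16.1 CPM in basal libraries. These groups overlapped. At 60 min the LTP libraries had 28.9, 25.6 and 29.1 CPM and the basal libraries 21.1, 17.6 and 18.5 CPM, so that each LTP library was above each basal one. At 120 min the values were 34.6, 35.2 and 34.3 CPM in LTP and 13.1, 16.4 and 13.0 CPM in basal libraries, where the lowest LTP value was far above the highest basal value. The log2 fold changes of LTP over basal were 0.14 ± 0.083, 0.55 ± 0.082 and 1.31 ± 0.106 (SE, n = 3 against 3) at 30, 60 and 120 min, with adjusted p of 0.514, 0.0143 and 5.32e-05 by edgeR's quasi-likelihood test. A gene was called where the adjusted p (Benjamini-Hochberg over all genes tested) was under 0.1 and the log2 fold change beyond 0.4 in either direction. By this rule 0, 1 and 1 of the 9 members were called in TRAP-seq at 30, 60 and 120 min, beside 0.393%, 0.471% and 1.64% of all genes tested.

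In RNA-seq at 30 min Sik1 had 36.7, 38.8 and 39.9 CPM in LTP libraries, against 31.3, 41.0 and 34.1 CPM in basal libraries. The highest single value belonged to a basal library. At 60 min the values were 51.4, 45.9 and 48.2 CPM in LTP and 38.0, 37.2 and 32.3 CPM in basal libraries, with no overlap. At 120 min they were 65.7, 63.0 and 58.1 CPM in LTP and 26.4, 25.7 and 26.6 CPM in basal libraries, again with no overlap. The log2 fold changes were 0.12 ± 0.087, 0.44 ± 0.070 and 1.25 ± 0.052 (SE, n = 3 against 3), with edgeR adjusted p of 0.805, 0.0202 and 7.43e-10. Here too 0, 1 and 1 of the 9 members were called at 30, 60 and 120 min, beside 0.119%, 0.224% and 1.37% of all genes tested.

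**Figure D1:**
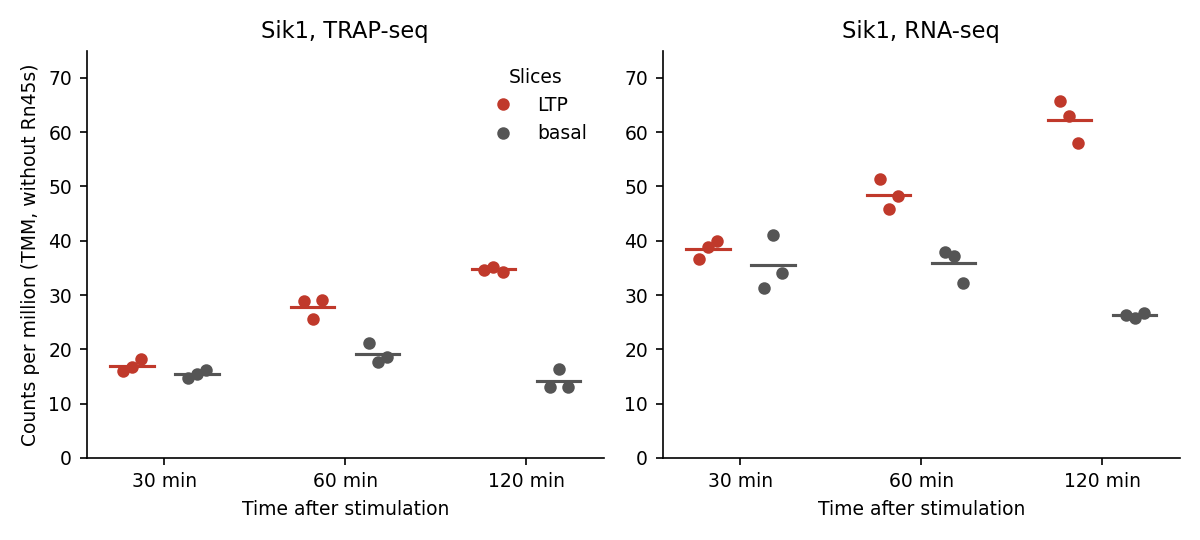
Sik1 in each library, in CPM (TMM-scaled, Rn45s left out), by time after stimulation, for TRAP-seq (left) and RNA-seq (right). Points are the 3 LTP and 3 basal libraries of each time and bars are their means; at 60 and 120 min all LTP points lie above all basal points, and at 120 min the TRAP-seq LTP points lie between 34.3 and 35.2 CPM.

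The calls at 120 min held when any 1 library was left out, with log2 fold changes of 1.26 to 1.42 in TRAP-seq and 1.21 to 1.30 in RNA-seq. The calls at 60 min were lost in the unpaired fit without some single libraries. In TRAP-seq the log2 fold change was then 0.53 without basal replicate 3 (adjusted p = 0.111) and 0.52 without LTP replicate 3 (adjusted p = 0.128), and in RNA-seq it was 0.37 without basal replicate 3 (adjusted p = 0.0644) and 0.39 without LTP replicate 1 (adjusted p = 0.154). Sik1 was higher in LTP in 3 of 3 pairs of slices from the same mice in each kind of RNA, and with the replicate number as a block the edgeR adjusted p at 60 min were 3.94e-08 in TRAP-seq and 6.85e-08 in RNA-seq. Without the TRAP-seq basal library that carries both times in its labels, the log2 fold change at 60 min was 0.63 (adjusted p = 0.0025). With Rn45s left out of the counts, the TRAP-seq value at 120 min was 1.31 (edgeR adjusted p = 5.05e-05), and the RNA-seq value was 1.25. In RNA-seq at 120 min none of 4 tested kidney markers was called, though all were below 0 (log2 -1.055 to -0.141). The part of the kidney transcripts in either Sik1 value was not tested.

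The response of Sik1 was larger at 120 than at 60 min. Set against 60 min, the response at 120 min was larger by 0.77 ± 0.129 on the log2 scale in TRAP-seq (adjusted p = 0.00916) and by 0.81 ± 0.112 in RNA-seq (adjusted p = 5.64e-04), by edgeR over the 18 libraries of each kind. Sik1 was the 1 member of 9 called in each of these contrasts, beside 0.235% of genes in TRAP-seq and 0.387% in RNA-seq. Set against 30 min, the response at 60 min was larger by 0.42 ± 0.124 in TRAP-seq (adjusted p = 0.618), and 0 of 9 members were called, beside 0.0673% of genes. With the replicate number as a block this contrast was called for Sik1 (log2 0.42, adjusted p = 0.0170), and 198 genes were called in place of 10. In RNA-seq the same contrast was 0.32 ± 0.113 for Sik1 (adjusted p = 0.449; 0.0632 with the block). There edgeR called 0% of genes and 0 of 9 members, while 1353 of all genes had an unadjusted p under 0.05 and DESeq2 called 18. These contrasts compare differences within each time, and a level at 120 min was not set against a level at 30 min.

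The size of the Sik1 response was not shown to differ between ribosome-bound and total RNA. Subtracting the RNA-seq log2 fold change from that in TRAP-seq left 0.01 ± 0.127 at 30 min, 0.11 ± 0.113 at 60 min and 0.08 ± 0.113 at 120 min, and its 95% interval at 120 min ran from -0.16 to 0.32. Of the 9 members 0 were called in this contrast at any time by edgeR, beside 0.0652%, 0.0764% and 0.227% of genes at 30, 60 and 120 min. The member nearest to a call was Crebbp at 30 min, with a difference of 0.33 ± 0.090 (adjusted p = 0.228). Its response was 0.16 ± 0.062 in TRAP-seq and -0.18 ± 0.062 in RNA-seq. Over all 27 values the differences ran from -0.26 to 0.33.

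Of the other 8 members none was called in any of the 6 comparisons of LTP with basal slices, with or without the replicate block. With the block some edgeR adjusted p, though not most, were under 0.1, while the fold stayed under that set for a call. Among the smallest were Crebbp (0.00156) and Crtc1 (0.0118) in TRAP-seq at 120 min and Crebbp at 60 min (0.0122). Without the block the 48 log2 fold changes of these members ran from -0.22 to 0.28. For 43 of them the whole 95% interval lay within 0.4 of 0 in either direction. The 5 intervals that reached further were those of Crem at 30 min, Crtc2 at 60 min and Atf1, Crtc3 and Crebbp at 120 min, each in TRAP-seq. The lowest bound was -0.55 (Crtc3) and the highest 0.43 (Crebbp). Groups without overlap were common over all genes tested, so this alone is little sign of a difference. In TRAP-seq they were found for 19.8%, 18.7% and 18.7% of genes at 30, 60 and 120 min. In RNA-seq the shares were 12.5%, 8.68% and 17.3%.

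Creb1 (chr1:64532645-64604548, plus strand), which encodes CREB itself, had nearly level values. At 120 min in TRAP-seq it had 70.5, 80.6 and 83.0 CPM in LTP libraries, against 71.5, 81.6 and 89.7 CPM in basal libraries. In RNA-seq at that time it had 81.8, 82.2 and 85.2 CPM in LTP libraries, against 86.8, 84.9 and 94.2 CPM in basal libraries. The groups overlapped in all 6 comparisons, and the log2 fold changes ran from -0.09 to 0.01. Atf1 (chr15:100227819-100261244, plus strand), the close relative of CREB, was below 0 in all 6 comparisons, between -0.22 and -0.02. Its smallest edgeR adjusted p was 0.479. At 120 min its TRAP-seq values were 7.89, 7.79 and 7.80 CPM in LTP and 9.02, 8.88 and 9.34 CPM in basal libraries. These groups did not overlap, while in RNA-seq at 120 min the LTP values of 10.8, 8.74 and 9.73 CPM overlapped basal values of 10.6, 10.8 and 9.92 CPM.

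Crem (chr18:3266048-3337748, minus strand), the gene of CREM and ICER, was next of the factors. In TRAP-seq at 30 min it had 37.3, 34.0 and 48.6 CPM in LTP libraries, against 42.5, 39.2 and 51.8 CPM in basal libraries. The third replicate was the highest and the second the lowest in each group, and each LTP library was below the basal library of its own number. The log2 fold change was -0.15 ± 0.133 (edgeR adjusted p = 0.681; 0.0713 with the replicate block). In RNA-seq at 120 min Crem had 29.1, 28.3 and 28.9 CPM in LTP libraries and 25.8, 22.1 and 27.4 CPM in basal libraries. These did not overlap, with a log2 fold change of 0.20 ± 0.069 (edgeR adjusted p = 0.216; 0.0346 with the replicate block). In TRAP-seq at that time the value was -0.07 ± 0.146.

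Among the coactivators that SIK1 controls, Crtc1 (chr8:70382355-70439579, minus strand), the main CRTC of neurons, had 225, 221 and 193 CPM in TRAP-seq LTP libraries at 120 min, against 196, 198 and 171 CPM in basal libraries. Each LTP library was above the basal library of its number, although the groups overlapped. Its log2 fold change was 0.18 ± 0.088 (edgeR adjusted p = 0.458; 0.0118 with the replicate block), and over the 6 comparisons it ran from -0.02 to 0.18. Crtc2 (chr3:90254163-90264125, plus strand) had 3.83 to 8.24 CPM in all libraries and between 56 and 279 reads, the fewest of the members. Its log2 fold changes ran from -0.07 to 0.19. Crtc3 (chr7:80586627-80688877, minus strand) was below 0 in all 6 comparisons, between -0.22 and -0.01. At 120 min in TRAP-seq its values were 19.6, 21.1 and 16.6 CPM in LTP and 26.7, 22.7 and 17.5 CPM in basal libraries, which overlapped and spread widely within the basal group.

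Of the acetyltransferases, Crebbp came closest to the threshold. Crebbp (chr16:4081328-4213997, minus strand), the gene of CBP, had 118, 111 and 114 CPM in TRAP-seq LTP libraries at 120 min, against 94.7, 91.5 and 97.0 CPM in basal libraries. The groups did not overlap, as for 18.7% of all genes tested there. The log2 fold change was 0.28 ± 0.072 (edgeR adjusted p = 0.110; 0.00156 with the replicate block, still under the fold set for a call). Ep300 (chr15:81585397-81652077, plus strand), the gene of p300, had 61.0, 61.6 and 60.0 CPM in LTP and 56.1, 55.4 and 50.1 CPM in basal libraries of the same kind and time. That difference was 0.18 ± 0.080 (edgeR adjusted p = 0.403; 0.0465 with the replicate block). In RNA-seq at 30 min both genes were lower in LTP than in basal slices without a call. For both, each LTP library was below the basal library of its number. Crebbp had 105, 99.6 and 97.9 CPM in LTP and 113, 124 and 105 CPM in basal libraries (log2 -0.18 ± 0.062, edgeR adjusted p = 0.525; 0.0299 with the replicate block). Ep300 had 44.4, 41.9 and 43.4 CPM in LTP and 49.2, 53.4 and 47.0 CPM in basal libraries (log2 -0.21 ± 0.060, adjusted p = 0.408; 0.0457 with the block). The small RNA gene Gm23880 shares 54 bases of exon with Ep300 on the same strand; the other members share none with another gene.

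**Figure D2:**
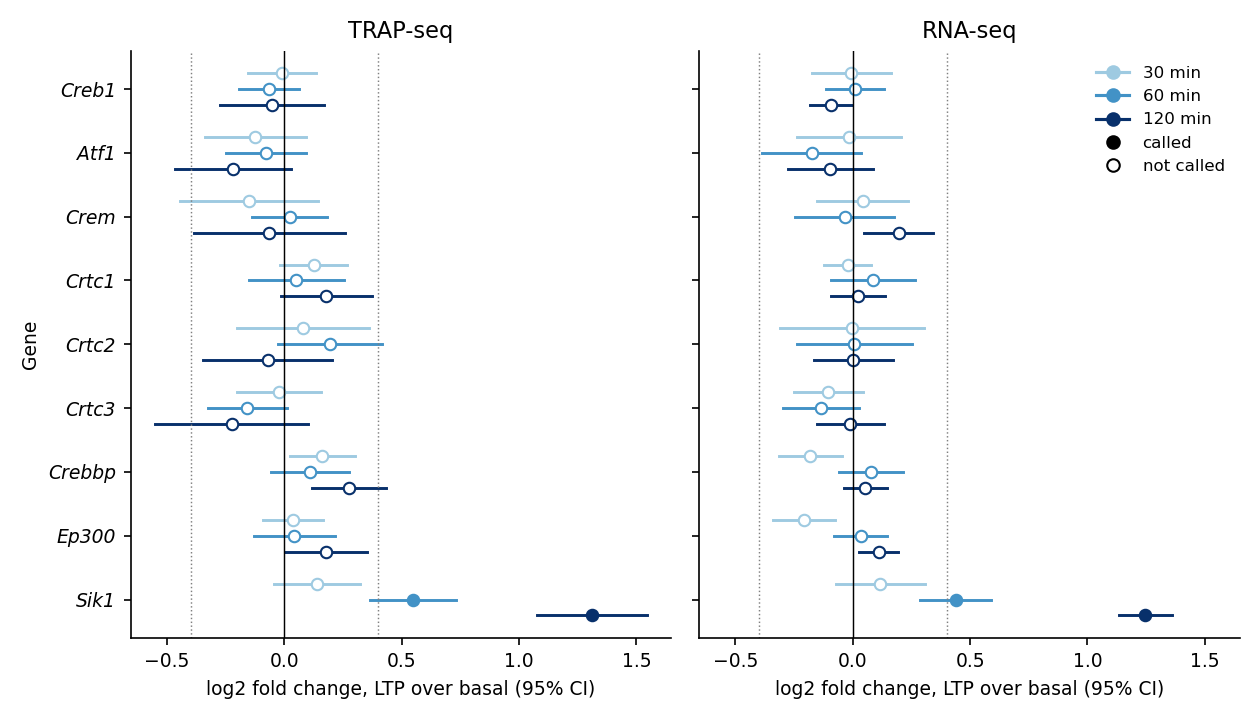
Log2 fold change of LTP over basal for the 9 members, in TRAP-seq (left) and RNA-seq (right), with 95% intervals; shades give the time, filled points were called, and dotted lines mark the fold set for a call. Filled points appear for Sik1 at 60 and 120 min alone, at 0.55 and 1.31 in TRAP-seq and 0.44 and 1.25 in RNA-seq.

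Basal slices were then used to ask how each member stood in ribosome-bound RNA of excitatory neurons against total RNA of the whole slice. Crem and Crtc1 were higher in TRAP-seq and Sik1 was lower, at each of the 3 times. In such bulk samples a type with fewer cells and one with less RNA per cell cannot be told apart. With 3 of the 9 members called at each time, the members stood beside 61.7%, 58.1% and 59.2% of all genes called at 30, 60 and 120 min, a larger share than among the members.

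For Crem at 30 min the basal values were 44.5, 41.0 and 54.2 CPM in TRAP-seq, against 24.4, 21.5 and 26.5 CPM in RNA-seq, scaled together. The groups did not overlap at any time, which also held for 79.5%, 77.6% and 75.3% of all genes tested at 30, 60 and 120 min. The log2 ratios of TRAP-seq over RNA-seq were 0.94 ± 0.108, 0.79 ± 0.091 and 0.61 ± 0.126 (SE, n = 3 against 3) at 30, 60 and 120 min, with edgeR adjusted p of 8.54e-06, 5.92e-06 and 0.00107. Crtc1 at 30 min had 179, 175 and 190.4 CPM in TRAP-seq, against 110.3, 109 and 111 CPM in RNA-seq. Its log2 ratios were 0.71 ± 0.048, 0.69 ± 0.085 and 0.81 ± 0.069. Crtc1 thus averaged 1.63-fold, 1.62-fold and 1.75-fold higher in the ribosome-bound RNA.

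Sik1 at 30 min had 15.5, 16.2 and 16.8 CPM in TRAP-seq, against 29.9, 38.9 and 32.5 CPM in RNA-seq. At 120 min it had 13.7, 17.2 and 13.7 CPM in TRAP-seq, against 23.1, 22.4 and 23.3 CPM in RNA-seq. The groups were apart at both times and also at 60 min, as for most genes tested. The log2 ratios were -1.07 ± 0.096, -0.81 ± 0.086 and -0.65 ± 0.093, with edgeR adjusted p of 1.07e-06, 2.65e-06 and 6.73e-05. The marker sums given above for astrocytes, oligodendrocytes and choroid plexus differed between TRAP-seq and RNA-seq of basal slices, and not all in the same direction. Their part in these ratios was not tested.

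The remaining 6 members were not called in this comparison. Ep300 had a log2 ratio of 0.32 ± 0.064 at 30 min (adjusted p = 7.36e-04), which is under the fold set for a call, and Crtc3 one of 0.35 ± 0.132 at 120 min (adjusted p = 0.0307). Creb1, Atf1, Crtc2 and Crebbp lay between -0.17 and 0.18 at all times. Without TRAP-seq replicate 3 the Crtc3 ratio was 0.56 and without RNA-seq replicate 1 it was 0.42, and it was called in both cases. When a trend on exon length and GC content was removed from each library, Creb1 (8776 bases of exon) was called as well, at 0.57, 0.47 and 0.66, and so was Ep300 (9566 bases), at 0.78, 0.56 and 0.49. Crebbp, the longest at 10820 bases, had a ratio of -0.11 ± 0.064 at 30 min and of 0.42 once the trend was removed, so that its direction depends on that step.

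**Figure D3:**
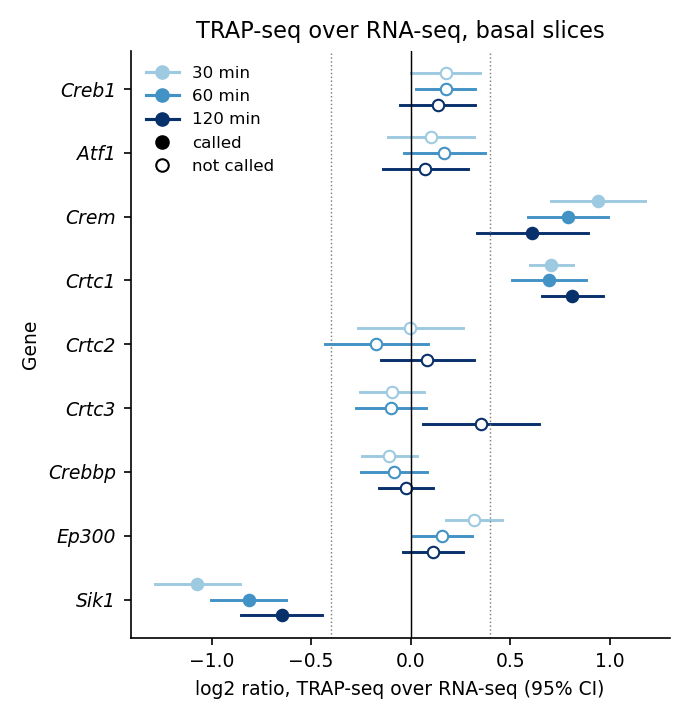
Log2 ratio of TRAP-seq over RNA-seq in basal slices for the 9 members at 30, 60 and 120 min, with 95% intervals; filled points were called and dotted lines mark the fold set for a call. Crem and Crtc1 lie to the right of the dotted line (0.61 to 0.94) and Sik1 to the left (-1.07 to -0.65).

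To compare levels between members, CPM were divided by the kb of exon of each gene. Crtc1 was the most abundant in every group, at 38.8 ± 4.6 CPM per kb in TRAP-seq LTP libraries at 60 min and 37.4 ± 3.9 CPM per kb in their basal partners (SD, n = 3). Crtc2 was the least abundant in every group, between 1.48 and 2.90 CPM per kb. Both ends of the order were thus held by CRTC genes. In RNA-seq at 30 min Crtc1 had 20.1 ± 0.54 CPM per kb in LTP and 20.4 ± 0.16 CPM per kb in basal libraries.

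Creb1 and Crebbp came next in TRAP-seq, at 8.89 ± 0.76 and 10.6 ± 0.36 CPM per kb in LTP libraries at 120 min and 9.22 ± 1.0 and 8.72 ± 0.25 CPM per kb in basal libraries. These 2 did not overlap in LTP libraries but did in basal libraries. The place of Sik1 in this order moved. In TRAP-seq at 120 min Sik1 stood at 7.68 ± 0.099 CPM per kb in LTP libraries, in place 4 of 9 and above Ep300 and Crem. In the basal libraries it stood at 3.14 ± 0.43 CPM per kb, above Crtc2 alone and below Atf1 without overlap. In RNA-seq at 120 min Sik1 was in place 2 in LTP libraries (13.8 ± 0.85 CPM per kb) and in place 5 in basal libraries (5.80 ± 0.11 CPM per kb). At 30 min, where no response was called, its place was 6 in LTP and 7 in basal libraries in TRAP-seq, and 4 in both in RNA-seq. Crtc3 and Atf1 were neighbours whose libraries overlapped at 120 min in each kind of RNA and in LTP and basal slices alike.

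**Figure D4:**
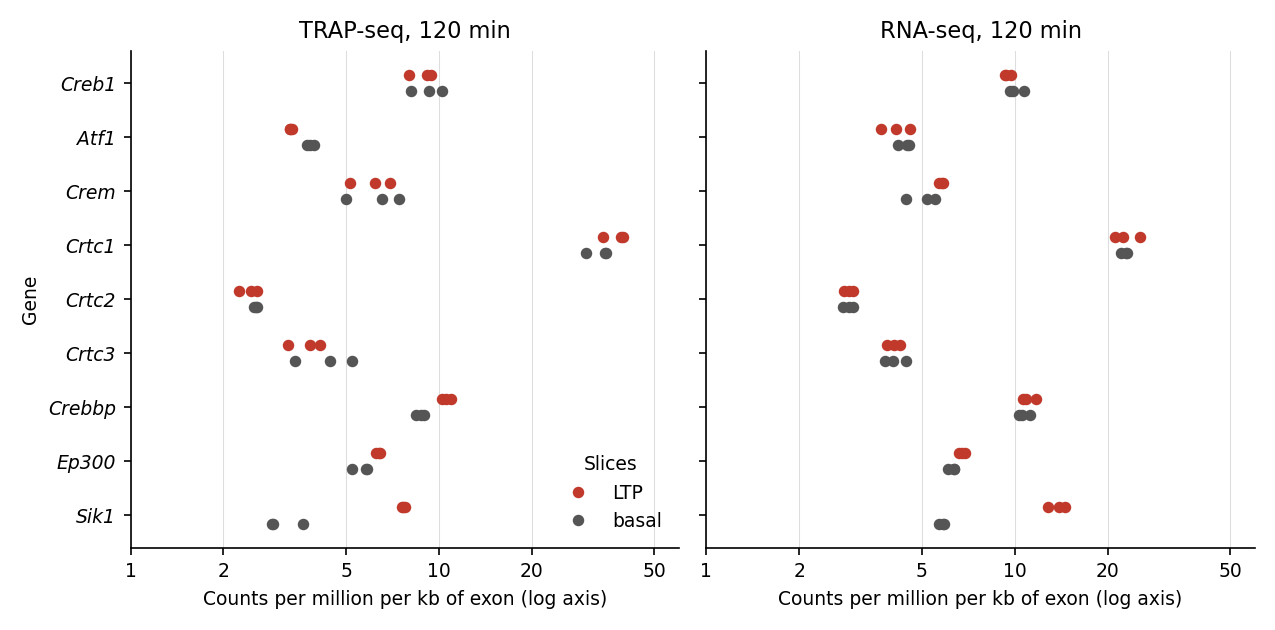
Level of the 9 members per library at 120 min, in CPM per kb of exon on a log axis, for TRAP-seq (left) and RNA-seq (right), LTP points drawn above basal points. The LTP and basal points of Sik1 are apart in both kinds of RNA (means of 7.68 and 3.14 in TRAP-seq, 13.8 and 5.80 in RNA-seq), those of Ep300 are also apart by less, and Crtc1 lies to the right of all others.

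The genes around the members were read from lists that hold the known targets of CREB, its kinases, the regulators of CRTC, the partners of CBP and p300, and further CREB/ATF factors. Of 20 CREB targets, 4, 8 and 13 rose in TRAP-seq at 30, 60 and 120 min and 3, 7 and 14 rose in RNA-seq by the rule for a call, and 0 were called lower. The median log2 fold change of the list was 0.13, 0.28 and 0.61 in TRAP-seq and 0.09, 0.25 and 0.63 in RNA-seq, beside medians between -0.0146 and 0.0036 over all genes tested. This list was written with earlier results of these data known, so its direction is no independent evidence.

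Btg2, an antiproliferative immediate early gene, had the largest change among the 4 targets named here. It averaged 195 ± 47.0 CPM in TRAP-seq LTP libraries and 46.9 ± 1.5 CPM in basal libraries at 30 min (SD, n = 3), a log2 fold change of 2.06 ± 0.139. Fos, the AP-1 subunit, was at 607 ± 37.3 CPM in TRAP-seq LTP libraries and 91.0 ± 11.0 CPM in basal libraries at 120 min (log2 2.73 ± 0.099). In RNA-seq at 30 min Fos was called at 0.61 ± 0.097 (adjusted p = 0.0334), and not without LTP replicate 2 or 3 (log2 0.57 and 0.55). Junb, another AP-1 subunit, was higher at 30 min by 0.81 ± 0.064 in TRAP-seq and 0.85 ± 0.046 in RNA-seq. Nr4a1, an orphan nuclear receptor, was not called at 30 min (0.35 ± 0.112 in TRAP-seq, adjusted p = 0.214) and was called at 60 min (1.10 ± 0.054) and 120 min (1.86 ± 0.085). Sik1 was below all 4 at each time and, like Nr4a1, was first called at 60 min. These 4 were picked from the list by their adjusted p, so this order does not hold for the list as a whole. In TRAP-seq Sik1 (0.55 and 1.31 at 60 and 120 min) was above the list medians of 0.28 and 0.61. In RNA-seq Sik1 (0.44 and 1.25) was above the medians of 0.25 and 0.63.

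**Figure D5:**
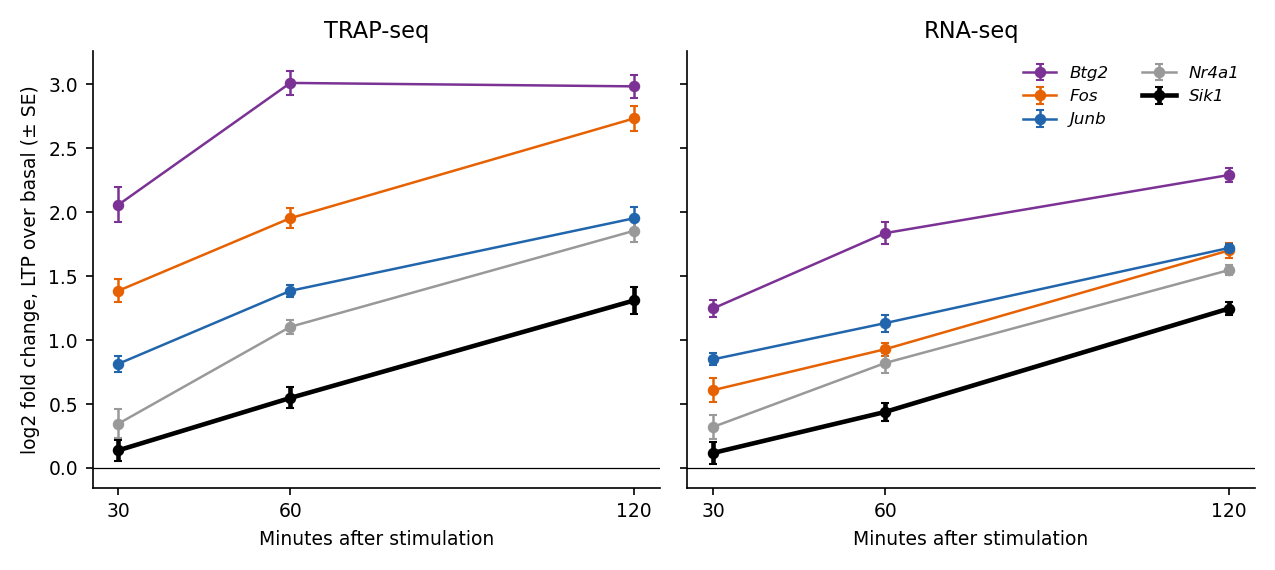
Log2 fold change of LTP over basal (± SE) against minutes after stimulation for Sik1 and 4 CREB targets, in TRAP-seq (left) and RNA-seq (right). Sik1 is the lowest line in both, from 0.14 and 0.12 at 30 min to 1.31 and 1.25 at 120 min, and Btg2 the highest. The 4 targets were picked from their list by adjusted p.

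None of 11 CREB kinases, among them the catalytic subunits of PKA, was called in any of the 6 comparisons. In these comparisons 0.119% to 1.64% of all genes tested were called, so lists this small without a call do not stand out. None of the 9 measured CRTC regulators was called, which include Sik2 and Sik3, calcineurin subunits and the kinase Stk11 (LKB1). With no minimum fold, 2 CRTC regulators at 30 min and 1 at 60 min were called lower in TRAP-seq, and 1 CREB kinase was called higher in RNA-seq at 120 min; without LTP replicate 1, 1 CRTC regulator was called lower in TRAP-seq at 30 min. The other CREB/ATF factors, of which 10 or 11 were measured, had no call either; with the replicate block 1 rose and 1 fell in TRAP-seq at 120 min. Among 12 partners of CBP and p300 and other acetyltransferases 1 was called, Cited2, whose protein binds CBP and p300. Cited2 averaged 24.2 ± 3.1 CPM in TRAP-seq LTP libraries and 16.9 ± 2.2 CPM in basal libraries at 120 min. Its log2 fold change was 0.42 ± 0.095 at 60 min (adjusted p = 0.0934) and 0.50 ± 0.126 at 120 min (adjusted p = 0.0934). Each call rested on single libraries: at 60 min it was lost without basal replicate 2 or 3 or LTP replicate 1 or 3, where the lowest value was 0.36, and at 120 min without basal replicate 1 or 2 or LTP replicate 1 or 3, where the lowest was 0.41.

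The genes most like Sik1 were sought over the 36 libraries, each centred on the mean of its kind of RNA and time, among 13659 genes. The highest Pearson correlations of log2 CPM were with Nr4a1 (0.957), Egr2 (0.946), Fosb (0.946), Csrnp1 (0.944) and Dusp6 (0.943). These are descriptions, and the points share the split into LTP and basal libraries. Egr2, a zinc-finger immediate early gene, had a log2 fold change of 3.13 ± 0.214 at 120 min in TRAP-seq, beside 1.31 for Sik1, and was already called at 30 min (0.60 ± 0.095), a call that was lost without basal replicate 1 or 2 (log2 0.63 and 0.60). Csrnp1, a nuclear protein gene, was called at 120 min alone, at 0.93 ± 0.114 in TRAP-seq and 0.73 ± 0.034 in RNA-seq, and Dusp6, an ERK phosphatase, at 60 min (0.47 ± 0.047) and 120 min (1.10 ± 0.094) in TRAP-seq.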

How the data were processed

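TRAP-seq and RNA-seq were measured in 36 mouse libraries, 3 per group. The authors aligned reads with STAR to mm10 and deposited raw read counts per gene, 1 table for each time; reads were single-end at 30 min and paired-end later, the kit kept no strand, and versions are not given in the sources used here. From these counts of 24058 genes (2 symbols turned into dates by a spreadsheet were left out, at most 0.00391% of reads), edgeR 4.0.16 in R 4.3.3 gave TMM factors, the filter on low counts and quasi-likelihood tests, with the study's thresholds (FDR under 0.1, log2 fold change beyond 0.4). The 54 further per-sample columns in the deposited tables and the authors' fold changes and p-values were not used. LTP contrasts used 6 libraries, TRAP-seq against RNA-seq responses 12 and time contrasts 18. Printed CPM leave out Rn45s. DESeq2 1.42.0 was an alternative, as were other scalings, filters and samples. Promoters came from RefSeq (GRCm38.p6) and gene positions from GENCODE M21, the same assembly as mm10. Tests were checked on simulated counts.

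LTP and basal libraries of a number share mice. Their deviations from the group means correlated at 0.108 to 0.426, against at most 0.0698 between other numbers. Deviations within a group sum to 0, so positive values for the same number push those for other numbers down. These ranges are thus not independent of each other. Members and lists were chosen with earlier results of these data known. Named genes were all members, up to 4 called genes per list by adjusted p, and the 5 genes most correlated with each called member.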

Additional observations from a re-analysis of the deposited data

Results flagged for a closer look

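The response of Sik1 to LTP differed between times by the test of the difference itself. The log2 fold change of LTP over basal was larger at 120 than at 60 min by 0.77 ± 0.129 in TRAP-seq (edgeR adjusted p = 0.00916) and by 0.81 ± 0.112 in RNA-seq (adjusted p = 5.64e-04). Over 26 alternatives the difference ran from 0.69 to 0.87 in TRAP-seq and from 0.76 to 0.88 in RNA-seq, and the largest adjusted p were 0.0747 and 0.00403. By the labels, libraries of 1 time were made and sequenced as 1 batch. The Sik1 level in basal libraries averaged 14.2 CPM at 120 min and 19.1 CPM at 60 min in TRAP-seq, and 26.2 CPM at 120 min and 35.8 CPM at 60 min in RNA-seq; the part of this in the larger response was not tested.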

How the results depend on the processing

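Counts of members called were recomputed in 16 comparisons, for 302 recounts in all (DESeq2, RLE factors, no filter on low counts, no minimum fold, Rn45s left out, a length and GC trend removed, the replicate block with and without that trend, the exact test, a fit over 12 libraries, and leaving out each library). Of these recounts, 288 kept the count within 1.5 times. A count of 0 that stayed 0 is among those kept, and most main counts were 0 or 1, so this number says little. When libraries were left out, the count ran from 0 to 1 for LTP against basal at 60 min in TRAP-seq and in RNA-seq. Once a trend on length and GC was taken out, 6, 5 and 5 members were called for TRAP-seq against RNA-seq in basal slices at 30, 60 and 120 min, in place of 3, and the same numbers with the block added; with no minimum fold 5 and 5 were called at 30 and 60 min. The Crebbp ratio at 30 min changed sign to 0.42 with that trend removed, with and without the block. The replicate block called 1 member for the TRAP-seq response at 60 against 30 min in place of 0, with and without the trend, and changed no other call of a member. Of 2718 single member values, 4 lost a call, 21 gained one in the same direction, the 2 Crebbp values gained one with the sign changed, and 161 changed sign without a call. Over all genes, the block called 235, 264 and 440 in TRAP-seq LTP comparisons at 30, 60 and 120 min in place of 56, 69 and 226, and 62, 56 and 243 in RNA-seq in place of 18, 35 and 210. The fewest reads were those on Crtc2, 56 to 279 per library.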
